A study of Mus musculus with 4 samples.

Results

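The genes described here form the chain by which a CD4+ T cell reads the cytokine interleukin-2 (IL-2): the receptor chains Il2ra and Il2rb, the kinases Jak1 and Jak3, the transcription factors Stat5a and Stat5b, and the inhibitors Cish, Socs2 and Socs3. They were chosen by name. Of the 10 genes on that list, 9 had a probe set that the platform annotation gives to a single gene, out of 18193 such genes in the series. The remaining gene, the common gamma chain Il2rg, was not analysed here. The 9 genes had 22 probe sets, of which 19 reached the intensity of 32.5 in at least 1 array and are called measured below. Across the series, 9625 genes were measured by the same rule.

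Expression was read in 4 populations of CD4+ T cells, namely those sorted as CD25hi Foxp3+, as CD25lo Foxp3+, as CD25+ Foxp3- and as CD25- Foxp3-, with 1 array each, an Affymetrix Mouse Genome 430 2.0. All came from the same pool of 25 male mice, B6/129 F2 animals aged 5 to 8 weeks, in which green fluorescent protein (GFP) had been knocked into Foxp3, the gene of the transcription factor of regulatory T cells. Spleen and lymph node cells were depleted with antibodies to CD8, B220, CD11b, NK1.1 and DX5 and sorted by GFP and by CD25, and the RNA went through 2 cycles of amplification. The reporter allele was thus shared by every group, and CD25lo Foxp3+ cells were sorted as low for CD25, not as lacking it. With 1 array per population no difference could be tested, and the values below are described by their size.

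IL-2 is made mainly by activated T cells. It is bound by a low-affinity alpha chain (CD25), and the beta chain and the common gamma chain carry the signal inward. Jak1 sits on the beta chain and Jak3 on the gamma chain. They phosphorylate STAT5, which moves to the nucleus and switches on genes that include the alpha chain itself and the inhibitors CIS and SOCS2, so the chain holds both a positive and a negative loop. Regulatory T cells depend on IL-2 from other cells and carry CD25 at all times, while conventional T cells display it after activation.

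Across the chain, the receptor chains and the inhibitors Cish and Socs2 differed most between populations on the probe set used for each gene. The kinases, the transcription factors and the inhibitor Socs3 differed less. Il2ra, Il2rb, Cish and Socs2 were each highest in CD25hi Foxp3+ cells and lowest in CD25- Foxp3- cells, in both cases by at least 1.5-fold from the nearest other array, while Jak1, Jak3, Stat5a, Stat5b and Socs3 spanned less than 2-fold over the 4 populations on the probe set used for each gene. The order of Il2ra, Il2rb, Cish and Socs2 was found in 27 of all 9625 measured genes, or 0.281%, with these 4 among the 27. The pattern was set after the values were seen, and Il2ra encodes CD25, a marker of the sort. The share is therefore a description only. The widest range among the 9 genes was 70.0-fold for Il2ra, followed by 15.4-fold for Il2rb, 14.5-fold for Socs2 and 5.30-fold for Cish. The narrowest was 1.45-fold for Jak1. On other measured probe sets the range was wider for Jak1, at 2.43-fold and 2.26-fold, and for Stat5a, at 2.23-fold. For Socs3 it was 1.66-fold and 3.55-fold. It was narrower for Il2ra, at least 41.3-fold, for Il2rb, at least 11.5-fold, and for Stat5b, 1.43-fold. For Socs2 it was 15.8-fold on 1418507_s_at and at least 3.82-fold on 1438470_at. The 70.0-fold of Il2ra rests on a value of 22.3 in CD25- Foxp3- cells, which is under the 32.5 asked of a measured set. In pools of sorted cells, a higher share of cells with a transcript and more transcript per cell cannot be told apart.

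**Figure D1:**
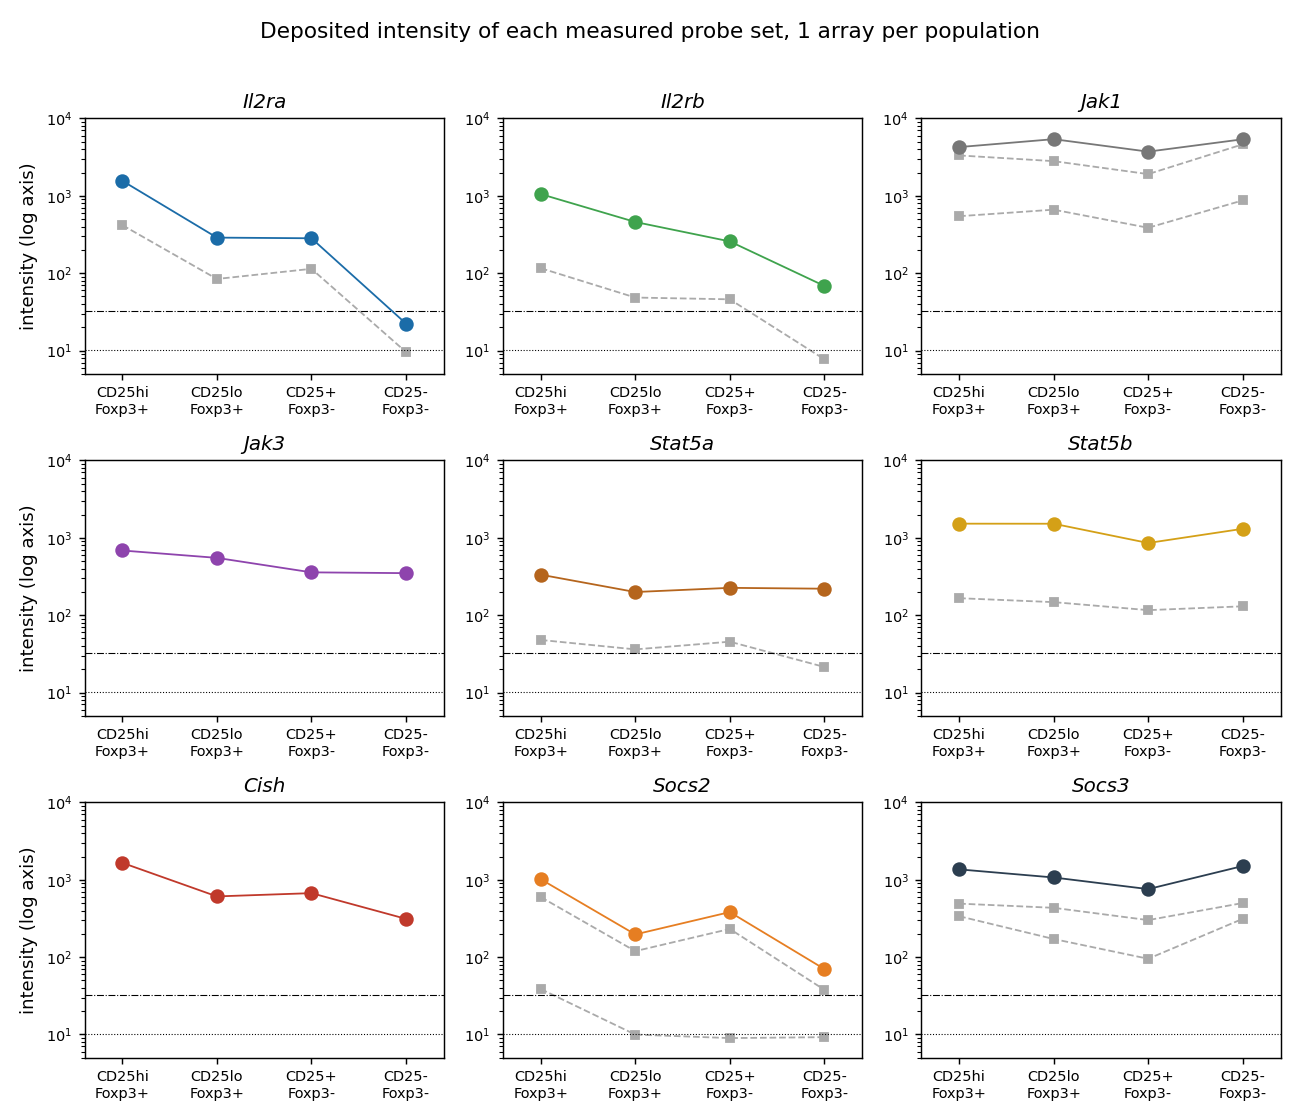
Intensity of each measured probe set (log axis) in the 4 populations, with 1 array per population and 1 panel per gene. Coloured circles are the probe set used for the gene, grey squares its other measured probe sets, the dotted line the floor of 10.1 and the dash-dotted line the filter of 32.5. Il2ra, Il2rb, Cish and Socs2 are highest in CD25hi Foxp3+ and lowest in CD25- Foxp3- cells, with Socs2 higher in CD25+ Foxp3- than in CD25lo Foxp3+ cells, and the circles of the other genes span less than 2-fold.

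No replicate gives a spread here, so the agreement between different probe sets of a gene was taken as a guide to the size of measurement error within an array. Over 4426 genes with at least 2 measured probe sets, the same comparison read by the 2 brightest sets differed by a median of 1.18-fold to 1.33-fold, depending on the comparison. In 10% of genes they differed by more than 1.59-fold to 2.17-fold. Of genes 2-fold apart on the brightest set, 89.1% to 96.5% had the same direction on the second. Only 47.5% to 68.9% were also 2-fold apart there. Neighbouring populations less than 1.5-fold apart are not ordered below, and a gap somewhat above 1.5-fold can still lie within this disagreement. This guide leaves out differences between mice, sorts and amplifications.

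The receptor chains came first. Il2ra, the alpha chain, is the gene whose product was used for the sort, so its level in the 4 populations checks the labels and is no finding. Its brighter probe set, 1420692_at, read 1562 in CD25hi Foxp3+ cells, 288 in CD25lo Foxp3+ cells, 283 in CD25+ Foxp3- cells, compared with 22.3 in CD25- Foxp3- cells. The second, 1420691_at, read 417, 84.2, 114 and 9.56 in that order, the last under the floor. Both set CD25hi Foxp3+ cells far above the rest and CD25- Foxp3- cells far below, and neither separated CD25lo Foxp3+ from CD25+ Foxp3- cells by 1.5-fold.

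Foxp3, the other sort gene, read 1308 for CD25hi and 1117 for CD25lo among Foxp3+ cells, and 16.8 for CD25+ and 17.6 for CD25- among Foxp3- cells. The alpha chain message thus differed 5.42-fold between CD25hi and CD25lo Foxp3+ cells, while that of Foxp3 differed 1.17-fold.

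Il2rb, the beta chain, also serves the receptor for IL-15 and was not used in the sort. Its probe set 1448759_at read 1053 in CD25hi Foxp3+ cells, 459 in CD25lo Foxp3+ cells, 257 in CD25+ Foxp3- cells, compared with 68.5 in CD25- Foxp3- cells. Each step down this order was at least 1.78-fold. Against CD25- Foxp3- cells, the difference was 15.4-fold in CD25hi Foxp3+, 6.70-fold in CD25lo Foxp3+ and 3.76-fold in CD25+ Foxp3- cells. The first of these placed Il2rb at rank 18 of 9625 genes.

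The second Il2rb probe set, 1417546_at, was dimmer and read 116, 48.4, 45.9 and 7.71 in the same order. It gave the same top and bottom, at least 11.5-fold apart since the lowest value lies under the floor. It did not separate CD25lo Foxp3+ from CD25+ Foxp3- cells, which differed 1.05-fold on this set and 1.78-fold on the first. Il2rb was therefore higher in both Foxp3+ than in both Foxp3- populations by at least 1.5-fold on the brighter set and not on the other.

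NK cells and memory CD8 T cells carry much Il2rb, so their markers are given beside it. The summed intensity of the 11 measured markers on that list was 878 in CD25hi Foxp3+ cells, 1470 in CD25lo Foxp3+ cells, 3034 in CD25+ Foxp3- cells, compared with 3425 in CD25- Foxp3- cells. Of the 11, CD25hi Foxp3+ cells had none at least 2-fold above CD25- Foxp3- cells and 10 below (7.09% and 3.74% of all measured genes). In CD25+ Foxp3- cells 3 were at least 2-fold above CD25- Foxp3- cells, Ncr1, Gzmk (416 against 139) and Eomes (411 against 106). The 3 below were Klrd1 (2.20-fold), Gzma (2.06-fold) and Prf1 (3.53-fold). In this comparison 12.1% of all measured genes were higher and 6.43% lower. The activating NK receptor Ncr1 read 36.2 in CD25+ Foxp3- cells and at most 10.7 in the other 3 arrays, so it was measured through that array alone, and the NK receptor Klra8 lay under the filter throughout. The part of such cells in the Il2rb values was not tested.

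Il2ra and Il2rb differed together but not to the same extent. Between CD25hi and CD25lo Foxp3+ cells, Il2ra differed 5.42-fold and Il2rb 2.29-fold. Between CD25+ and CD25- Foxp3- cells, the folds were 12.7 and 3.76. Between CD25hi Foxp3+ and CD25+ Foxp3- cells, both called positive for CD25 by their labels, Il2ra was 5.53-fold and Il2rb 4.09-fold higher in the Foxp3+ cells on the brighter sets, and 3.67-fold and 2.53-fold on the dimmer ones.

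The kinases spanned a narrow range on the probe set used for each. Jak3, which pairs with the gamma chain, read 686 in CD25hi Foxp3+ cells, 550 in CD25lo Foxp3+ cells, 358 in CD25+ Foxp3- cells, compared with 349 in CD25- Foxp3- cells. Both Foxp3+ arrays lay above both Foxp3- arrays, with a gap of 1.54-fold, and the arrays within each pair differed by 1.25-fold or less. Jak3 was read from 1 probe set, and 2 more that the annotation gives to Jak3 and Insl3 together were left out. A gap of this size is within the range by which probe sets of a gene disagree.

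Counted together, Il2rb and Jak3 were the members higher in both Foxp3+ than in both Foxp3- populations, 2 of 9 where 2.79% of all measured genes were higher by the same rule. None was lower, where 1.93% of all measured genes were.

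Jak1, which serves many cytokine receptors, read 4266 in CD25hi Foxp3+ cells, 5402 in CD25lo Foxp3+ cells, 3725 in CD25+ Foxp3- cells, compared with 5384 in CD25- Foxp3- cells on its brightest probe set, 1433805_at. No neighbours in this order were 1.5-fold apart. The other Jak1 sets, 1433803_at and 1433804_at, put CD25+ Foxp3- cells 2.43-fold and 2.26-fold below CD25- Foxp3- cells, against 1.45-fold on the brightest. CD25+ Foxp3- cells were the lowest of the 4 populations on all 3 sets, and the size of the difference depended on the set.

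Stat5a and Stat5b are near-identical paralogs on the same chromosome, and transcripts that alike may share hybridisation to a probe, which was not tested. Stat5a read 334 in CD25hi Foxp3+ cells, 199 in CD25lo Foxp3+ cells, 226 in CD25+ Foxp3- cells, compared with 220 in CD25- Foxp3- cells. CD25hi Foxp3+ cells were 1.68-fold above CD25lo Foxp3+ cells and 1.52-fold above CD25- Foxp3- cells, and the other 3 arrays lay within 1.13-fold of each other. The dimmer Stat5a set, 1450259_a_at, read 47.8, 36.1, 45.4 and 21.4 in the order of the populations. It set CD25- Foxp3- cells lowest instead, at a value under the filter.

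Stat5b read 1524 in CD25hi Foxp3+ cells, 1521 in CD25lo Foxp3+ cells, 857 in CD25+ Foxp3- cells, compared with 1307 in CD25- Foxp3- cells. CD25+ Foxp3- cells stood lowest, 1.53-fold below CD25- Foxp3- cells, and the other 3 arrays did not separate. Of all measured genes, 4.2% had CD25+ Foxp3- cells lowest by at least 1.5-fold. The second Stat5b set read 166, 147, 116 and 130 and showed no neighbours 1.5-fold apart.

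The inhibitors divided. Cish encodes CIS, which binds activated cytokine receptors and blocks access to STAT5, and it is itself a textbook STAT5 target. It read 1656 in CD25hi Foxp3+ cells, 610 in CD25lo Foxp3+ cells, 672 in CD25+ Foxp3- cells, compared with 313 in CD25- Foxp3- cells. The highest population stood 2.46-fold above the next and the lowest 1.95-fold below the one before it, while CD25lo Foxp3+ and CD25+ Foxp3- cells, 1.10-fold apart, were not ordered. Cish has 1 probe set, so no second reading exists.

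Promoter windows are shown for Cish and Socs3, the inhibitors with a window in the RefSeq table of build GRCm38.p6, and for Il2ra as the member with the widest range. Each runs from 250 bases before the start that the table uses to 50 after it. For Socs3 that start lies inside the span annotated for the gene and not at its end. Capitals mark matches to TTCNNNGAA, the core motif that STAT5 and other STAT factors bind, which reads the same on both strands. Windows were found for 7 of the 9 members, and none for Il2rb or Socs2.
Cish, chr9:107296409-107296708, plus strand: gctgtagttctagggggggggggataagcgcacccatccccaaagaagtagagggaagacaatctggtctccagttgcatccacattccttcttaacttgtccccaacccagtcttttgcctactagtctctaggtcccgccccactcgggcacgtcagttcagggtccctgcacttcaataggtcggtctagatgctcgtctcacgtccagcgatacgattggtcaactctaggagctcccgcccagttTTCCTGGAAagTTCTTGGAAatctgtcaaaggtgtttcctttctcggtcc
Socs3, chr11:117969317-117969616, minus strand: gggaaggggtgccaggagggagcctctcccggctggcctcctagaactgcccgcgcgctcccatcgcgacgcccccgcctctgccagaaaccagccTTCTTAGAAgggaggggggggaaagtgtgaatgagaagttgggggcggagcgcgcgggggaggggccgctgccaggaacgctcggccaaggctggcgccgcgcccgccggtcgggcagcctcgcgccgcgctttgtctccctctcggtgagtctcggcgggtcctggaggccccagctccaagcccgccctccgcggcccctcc
Il2ra, chr2:11642542-11642841, plus strand: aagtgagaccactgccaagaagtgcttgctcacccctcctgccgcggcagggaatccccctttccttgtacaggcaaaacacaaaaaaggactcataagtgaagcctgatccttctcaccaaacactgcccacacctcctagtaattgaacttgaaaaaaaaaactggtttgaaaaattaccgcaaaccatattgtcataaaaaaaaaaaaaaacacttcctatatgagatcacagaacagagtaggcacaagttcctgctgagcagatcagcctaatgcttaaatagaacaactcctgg

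The Cish window held 2 matches, TTCCTGGAA and TTCTTGGAA, separated by 2 bases, and the first begins at position 251 of the window. The Socs3 window held 1, TTCTTAGAA, beginning at position 97. The windows of Il2ra, Jak1, Jak3, Stat5a and Stat5b held none. Of 32851 such windows in the table, 8.30% held at least 1 match and 0.457% held at least 2. A match describes letters and not binding, and sites outside these windows were not searched.

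Socs2, which restrains growth hormone and other JAK-STAT receptors, was the inhibitor with the widest range. Its probe set 1449109_at read 1017 in CD25hi Foxp3+ cells, 197 in CD25lo Foxp3+ cells, 382 in CD25+ Foxp3- cells, compared with 70.2 in CD25- Foxp3- cells. All 4 populations were set apart, each neighbour by at least 1.94-fold. A second set, 1418507_s_at, gave 598, 120, 231 and 37.9 and the same order with nearly the same folds.

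In the middle ranks of Socs2, CD25lo Foxp3+ cells were 1.94-fold below CD25+ Foxp3- cells on both of these sets, although Il2ra did not separate those 2 populations. It was the only one of the 9 genes higher by at least 1.5-fold in CD25hi Foxp3+ and CD25+ Foxp3- than in CD25lo Foxp3+ and CD25- Foxp3- cells, where 1.1% of all measured genes were. No member was lower in that pairing, where 0.187% of all measured genes were. A further measured set, 1438470_at, read 38.7 in CD25hi Foxp3+ cells and under the floor in the others, at least 3.82-fold lower, and 3 more did not reach the filter.

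Socs3 restrains receptors of the gp130 family, such as that of IL-6, and did not share the order of the other inhibitors. Its brightest set, 1455899_x_at, read 1364 in CD25hi Foxp3+ cells, 1071 in CD25lo Foxp3+ cells, 758 in CD25+ Foxp3- cells, compared with 1506 in CD25- Foxp3- cells. CD25+ Foxp3- cells were lowest, 1.99-fold below CD25- Foxp3- cells on this set, 1.66-fold on 1456212_x_at and 3.28-fold on 1416576_at. All 3 sets agreed on the lowest population, and CD25hi Foxp3+ and CD25- Foxp3- cells differed by 1.10-fold or less on each. CD25hi stood above CD25lo Foxp3+ cells by 1.27-fold on the brightest set, 1.13-fold on 1456212_x_at and 1.97-fold on 1416576_at.

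Set by comparison, CD25hi Foxp3+ cells differed from each other population in the same 4 genes. Among them, Il2ra is the gene of the sort marker CD25. Its part in these counts, and in those of the other populations below, is no finding. Against CD25- Foxp3- cells, Il2ra, Il2rb, Cish and Socs2 were at least 2-fold higher, where 7.09% of all measured genes were, and none of the 9 was lower, where 3.74% of all were. The median log2 difference of the 9 genes was 0.97, beside 0.02 for all measured genes. Against CD25+ Foxp3- cells, the 4 genes were again at least 2-fold higher (4.82% of all genes) and none was lower (6.84%).

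Against CD25lo Foxp3+ cells the same 4 were at least 2-fold higher, where 3.21% of all genes were, and none was lower, where 2.51% were. Socs2 differed 5.17-fold, rank 12 of all genes, Il2ra 5.42-fold, rank 9, Cish 2.72-fold, rank 101, and Il2rb 2.29-fold, rank 165. These comparisons share the CD25hi Foxp3+ array, so they are not independent of each other.

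CD25lo Foxp3+ cells had 3 of the 9 at least 2-fold above CD25- Foxp3- cells, Il2ra, Il2rb and Socs2, where 9.1% of all genes were higher and 6.88% lower. Cish lay just outside, at 1.95-fold. CD25+ Foxp3- cells had 4 of the 9 at least 2-fold above CD25- Foxp3- cells, with Cish just inside at 2.15-fold, where 12.1% of all genes were higher and 6.43% lower. Socs3, at 1.99-fold lower, lay just outside. Between CD25lo Foxp3+ and CD25+ Foxp3- cells no member differed 2-fold, where 5.17% of all genes were higher and 9.04% lower.

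**Figure D2:**
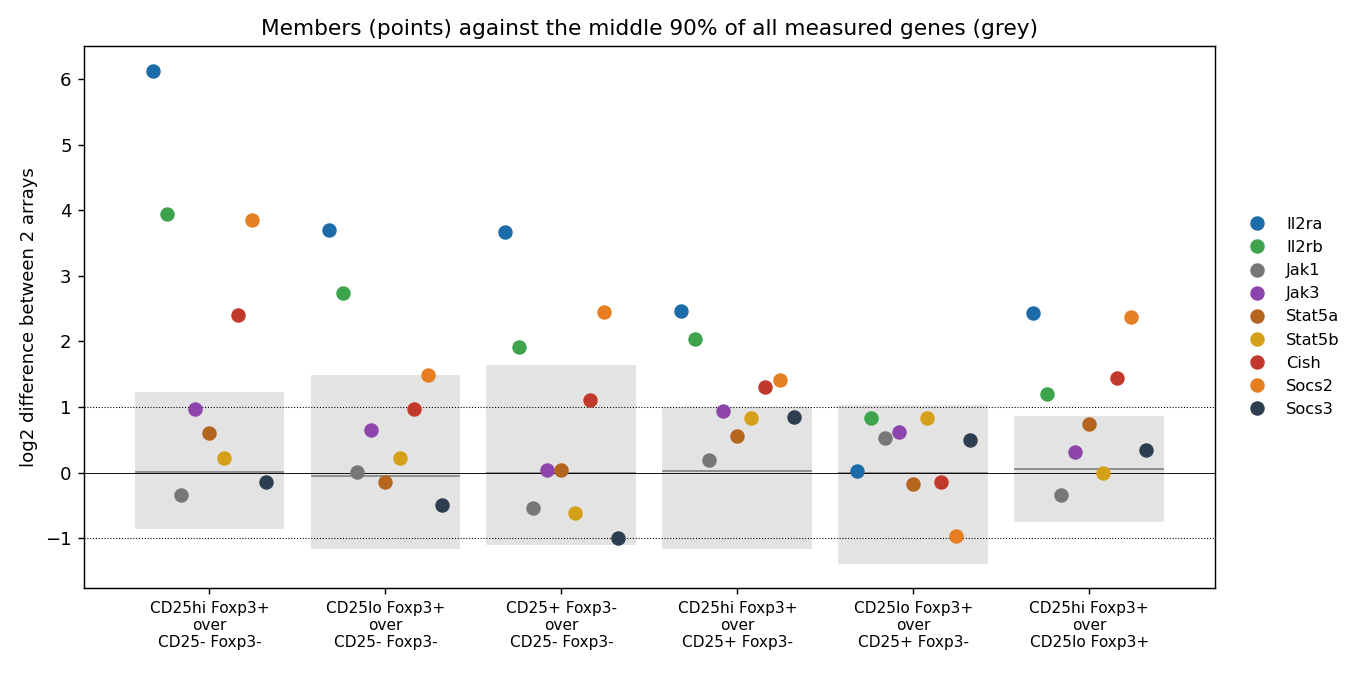
Log2 difference of each member between 2 arrays, in 6 comparisons. Points are the 9 genes, grey boxes hold the middle 90% of all 9625 measured genes, the grey line is their median and dotted lines mark 2-fold. Il2ra, Il2rb, Cish and Socs2 lie above the box in the 3 comparisons of CD25hi Foxp3+ cells, and every member lies inside the box for CD25lo Foxp3+ over CD25+ Foxp3- cells.

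The step from lower to higher CD25 was also read within each Foxp3 state. The log2 difference for Il2ra was 2.44 in Foxp3+ and 3.66 in Foxp3- cells, for Socs2 2.37 and 2.45, for Cish 1.44 and 1.10 and for Il2rb 1.20 and 1.91. All 4 were thus higher with CD25 in both states, by similar amounts for Socs2. For Il2ra, which encodes CD25, this restates the sort. For Socs3 the log2 difference was 0.35 in Foxp3+ and -0.99 in Foxp3- cells, and for Stat5b 0.00 and -0.61, on the set used for each. The other Socs3 sets gave 0.18 and -0.73 (1456212_x_at) and 0.98 and -1.715 (1416576_at). The second Stat5b set gave 0.17 and -0.16.

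**Figure D3:**
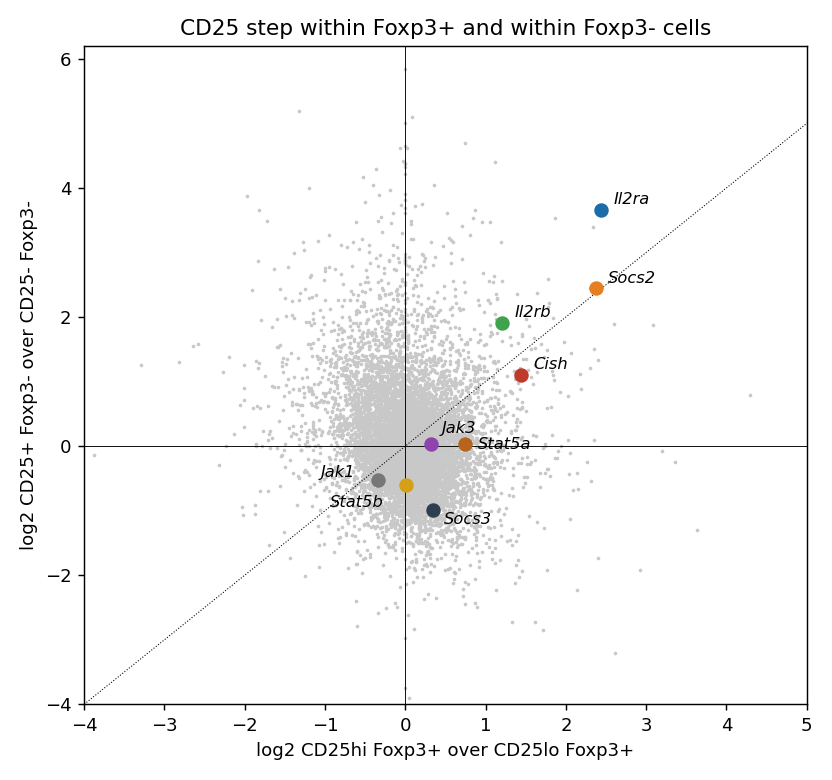
Log2 difference of CD25hi over CD25lo Foxp3+ cells (horizontal) and of CD25+ over CD25- Foxp3- cells (vertical) for all measured genes (grey) and the 9 members (coloured). The dotted line marks equal differences. Il2ra, Il2rb, Cish and Socs2 lie to the upper right, and Socs2 lies close to the line.

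Genes with the most similar profile were sought by the root mean square distance between mean-centred log2 values over the 4 arrays. For Il2rb they were Plagl1 (0.23), Capn3 (0.24) and Coro2a (0.27). For Socs2 they were Ntn4 (0.36), Arhgap20 (0.41) and Pla2g4f (0.43). For Il2ra, whose range ranked 3 among all measured genes, the nearest were Capn3 (0.68), Plagl1 (0.70) and Sdc4 (0.73). Plagl1, a zinc finger transcription factor, read 1890, 553, 438 and 98.2 in the order of the populations. With 4 arrays such likeness is a description only.

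The ligands were read in the same arrays. IL-2 belongs to the family of cytokines that use the common gamma chain, and of 6 such genes Il2, Il4 and Il21 were measured while Il7, Il9 and Il15 stayed under the filter. Il2 read 10.7 in CD25hi Foxp3+ cells, 14.1 in CD25lo Foxp3+ cells, 286 in CD25+ Foxp3- cells, compared with 17.3 in CD25- Foxp3- cells. In CD25+ Foxp3- cells Il4 lay 2.02-fold and Il21 14.7-fold above CD25- Foxp3- cells. None of the 3 reached the filter in all 4 arrays, so their number says nothing about the list. Il2 passed the filter in a single array, a population in which Il2ra lay well below its level in CD25hi Foxp3+ cells.

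Some markers of other lymphocytes were high in that array. The 12 listed markers of innate lymphoid, gamma delta T and NKT cells included 6 measured ones, with summed intensities of 1411 in CD25hi Foxp3+ cells, 2325 in CD25lo Foxp3+ cells, 2086 in CD25+ Foxp3- cells, compared with 734 in CD25- Foxp3- cells. Kit read 399 and Klrb1b 188 in CD25+ Foxp3- cells, where the other arrays read at most 11.7 and 8.65, and like Zbtb16 they were measured through that array alone. Sox13 lay under the filter in all 4. Rora and Gata3, which T cells express as well, made up most of these sums in all 4 arrays. The summed level of 8 B cell markers was 9299 (CD25hi) and 10830 (CD25lo) with Foxp3, beside 13586 (CD25+) and 16397 (CD25-) without, with Cd79a and Pax5 under the filter throughout. Ighm made up most of each sum. H2-Aa, by contrast, read 132 and 375 with Foxp3, beside 1877 and 1098 without, and Ms4a1 read 15.9 and 24.7, beside 66.7 and 145. Cd79b went the other way, at 97.2 and 118 with Foxp3, beside 58.4 and 69.2 without. The B cell markers thus did not all share a direction. For 9 myeloid markers the summed level was 253 and 548, beside 856 and 898 in the same order, with Itgam, Cd14 and Itgax under the filter. Fcer1g read 294 in CD25+ Foxp3- cells and at most 21.9 in the other arrays. Csf1r and Lyz2 went the other way between the Foxp3- arrays, at 147 and 70.6 with CD25, beside 305 and 147 without. The part of such cells in the members' values was not tested. The CD4 T cell genes Cd4, Cd3d, Cd3e, Cd3g, Cd247, Cd5 and Cd28 reached the filter in all 4 arrays. Their summed level was 29619 (CD25hi) and 34163 (CD25lo) with Foxp3, beside 23315 (CD25+) and 32093 (CD25-) without. Cd3d, Cd3e and Cd3g lay 1.60-fold, 1.62-fold and 1.52-fold lower in CD25+ than in CD25- Foxp3- cells. Cd4, Cd5 and Cd247 were lower by less, and Cd28 was 1.06-fold higher. Whether this difference has a part in the lower member values of CD25+ Foxp3- cells was not tested.

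Other receptor chains pair with the gamma chain. Of 4 measured chains none separated CD25hi Foxp3+ from CD25- Foxp3- cells by 2-fold, where 7.09% of all measured genes were higher and 3.74% lower. Il7r, the IL-7 receptor chain, read 3565 in CD25hi Foxp3+ cells, 3465 in CD25lo Foxp3+ cells, 5075 in CD25+ Foxp3- cells, compared with 6659 in CD25- Foxp3- cells. Il4ra lay 2.22-fold below its CD25- Foxp3- level in CD25+ Foxp3- cells and in CD25hi Foxp3+ cells 2.44-fold above its CD25+ Foxp3- level. Il15ra was 2.03-fold higher in CD25lo Foxp3+ cells than with neither marker. Of 6 other JAK and STAT genes, Jak2, Tyk2, Stat2, Stat3, Stat4 and Stat6, none was 2-fold apart in any of the 6 comparisons. Depending on the comparison, 3.21% to 12.1% of all measured genes were higher and 2.51% to 9.04% lower. With lists this short such absences are a description only.

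Among the other SOCS genes, Socs5 read 178, 167 and 339 in CD25hi Foxp3+, CD25lo Foxp3+ and CD25+ Foxp3- cells, against 67.2 in CD25- Foxp3- cells, at least 2.48-fold higher in each. Socs1, which inhibits JAK kinases directly, read 41.1 in CD25hi Foxp3+ cells and under the filter in the other 3. Socs6 in CD25+ Foxp3- cells stood 2.15-fold above its level with neither marker. Socs4 and Socs7 were within 2-fold in every comparison.

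The 13 phosphatases, PIAS proteins and other restraints of JAK-STAT signalling were all measured, and none was 2-fold apart from CD25- Foxp3- cells in any of the other populations. Of all measured genes, 7.09% (CD25hi Foxp3+), 9.1% (CD25lo Foxp3+) and 12.1% (CD25+ Foxp3-) were higher in these comparisons. The shares lower were 3.74%, 6.88% and 6.43%. In a list this short such an absence is a description only. The ubiquitin ligase Cbl was 2.52-fold (CD25hi) and 3.05-fold (CD25lo) higher in Foxp3+ cells than in CD25+ Foxp3- cells, and the phosphatase Ptpn11 lay 2.02-fold below its CD25+ Foxp3- level in CD25hi Foxp3+ cells. Of 13 adaptor and PI3 kinase genes, Pik3r1, a regulatory subunit of PI3 kinase, read 1327 for CD25hi and 1411 for CD25lo Foxp3+ cells, set against 866 for CD25+ and 861 for CD25- Foxp3- cells. Sos2, a Ras exchange factor, in CD25+ Foxp3- cells lay 2.45-fold above its level in CD25- Foxp3- cells. Syk, a kinase prominent in B cells, read 21.7 and 24.5 with Foxp3, both under the filter, and 47.9 and 49.9 without it.

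Downstream, 21 of 22 listed STAT5 target genes were measured, and their directions were mixed. In CD25hi Foxp3+ against CD25- Foxp3- cells 8 were at least 2-fold higher and 4 lower (7.09% and 3.74% of all measured genes), with a median log2 difference of 0.33. In CD25lo Foxp3+ cells 6 were higher and 6 lower (9.1% and 6.88% of all), with a median of 0.10. In CD25+ Foxp3- cells 9 were higher and 2 lower (12.1% and 6.43% of all), with a median of 0.78. The medians of all measured genes in these comparisons were 0.02, -0.05 and -0.01. Many listed genes also answer to signals other than STAT5.

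The targets that in CD25hi Foxp3+ cells exceeded their level in CD25- Foxp3- cells were led by Il10, at least 20.5-fold, Tnfrsf4 (OX40), 17.8-fold, Tnfrsf9 (4-1BB), 11.8-fold, and Gzmb, 6.93-fold. The 4 lower were the kinase gene Pim2, 2.49-fold, perforin (Prf1), 4.36-fold, Ifng, 2.07-fold, and Id2, 2.95-fold. Prf1 is also a marker of cytotoxic cells on the list above. Bcl2l1, which encodes the survival factor BCL-XL, read 492, 334 and 428 in the order of the populations, against 172 in CD25- Foxp3- cells.

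Between CD25hi and CD25lo Foxp3+ cells, 4 of the 21 targets were at least 2-fold higher and 3 lower, beside the 3.21% and 2.51% of all genes given above. The higher ones were Lta (lymphotoxin alpha), at 336 against 65.7, Myc, at 828 against 204, the survival gene Bcl2, at 2653 against 732, and Osm, at 171 against 76.5. The lower ones were Prdm1, at 280 against 627, Bcl6, a repressor that STAT5 is known to turn down, at 183 against 465, and Ifng, at 140 against 366. In CD25+ Foxp3- cells Myc read 802 and Lta 341, close to their levels in CD25hi Foxp3+ cells, and both were higher in these 2 populations than in CD25lo Foxp3+ and CD25- Foxp3- cells by at least 1.5-fold. Pim1, by contrast, read 1677 and 1711 with Foxp3, in CD25hi and CD25lo order, and without it 414 in CD25+ and 1138 in CD25- cells.

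**Figure D4:**
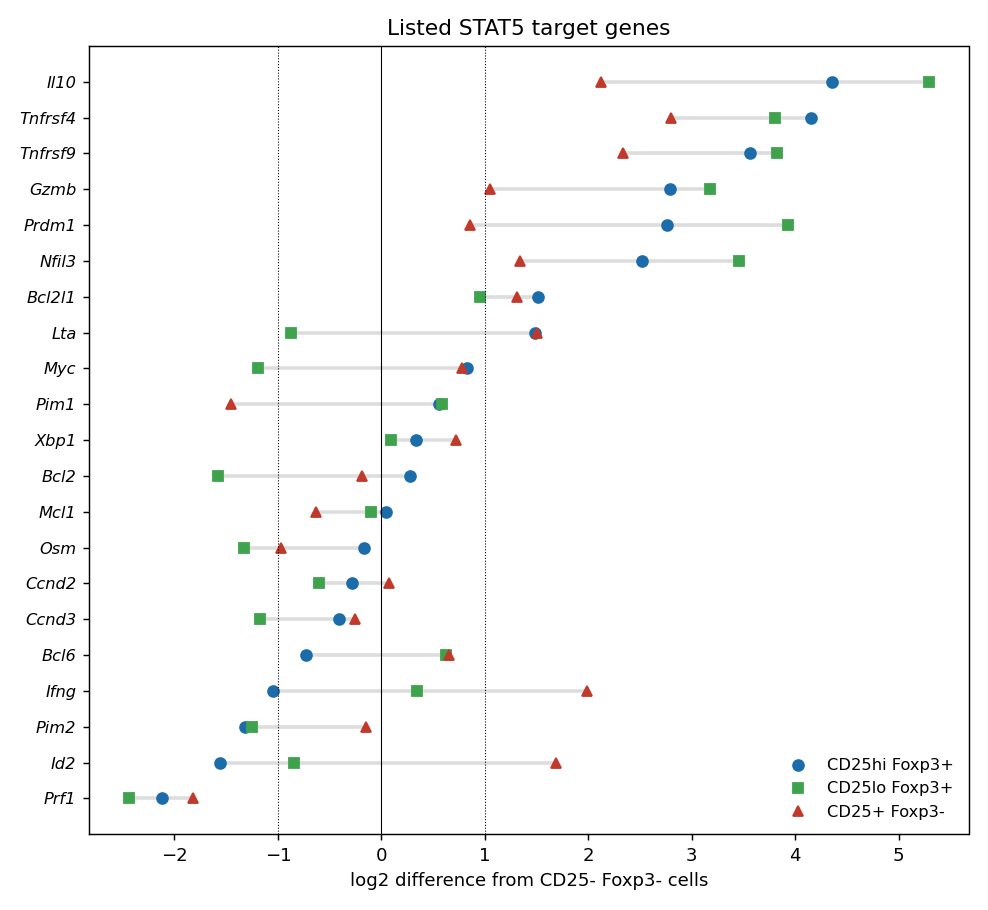
Log2 difference of 21 listed STAT5 target genes from CD25- Foxp3- cells in CD25hi Foxp3+ (circles), CD25lo Foxp3+ (squares) and CD25+ Foxp3- cells (triangles), 1 array each. Dotted lines mark 2-fold. Genes at the top are higher in all 3 populations, while Lta, Myc and Bcl2 are lower in CD25lo Foxp3+ than in CD25hi Foxp3+ cells.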

How the data were processed

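The 4 arrays each hold linear intensities, 1 for each probe set, as the authors deposited them. Per the labels, cRNA was made from total RNA in 2 amplification cycles. Probe summary, background correction and normalization are not given in the sources used here. Column medians lay between 15.03 and 15.6, so no scaling was applied. Of 45101 probe sets, 64 controls were left out, 34945 had 1 listed gene, 932 several and 9160 none. Of those with 1 gene, 34741 matched the RefSeq table of GRCm38.p6 by Entrez identifier, and no symbol changed.

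Intensities under the 40th percentile (10.1) were set to it before log2. A probe set was measured where the highest of its 4 values was at or above the 60th percentile (32.5), and a gene was read from its measured set with the highest mean log2 value. A fold against the floor is written as at least. Calls were by size: 2-fold between 2 arrays, 1.5-fold between the nearest arrays of pairs, with the share of all measured genes as background. Python 3.11.15 and pandas 2.3.3 were used, and these rules were checked on simulated arrays. Members and lists were chosen with earlier results of these data known. Named genes were all members, listed genes past a size rule (all where 5 or fewer passed, otherwise the 4 largest) and the 3 nearest profiles; other genes named were chosen after their values were seen. With 1 array per group there is no replicate, and the number of arrays limits the precision. Alternatives changed the probe set, floor, filter, scaling or threshold.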

Additional observations from a re-analysis of the deposited data

How the results depend on the processing

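Of 432 member differences recomputed under 8 alternatives, none that was 2-fold turned its direction, and 17 of 19 such differences stayed at 2-fold in all 8. The size moved by over 1.5-fold in 17 of the 432, all under another choice of probe set. The exceptions were Socs2 in CD25lo Foxp3+ and in CD25+ Foxp3- over CD25- Foxp3- cells, which read 0 on its dimmest probe set, at the floor there. Removing the floor, raising it, removing or raising the filter left every count of members within 1.5 times. With the dimmest probe set per gene, 1 member (Jak3) was higher in both Foxp3+ populations, 0 in the CD25 pairing, and 2 (Jak1, Socs3) were lower in CD25+ than in CD25- Foxp3- cells. With the mean over probe sets these were 1 (Jak3) for Foxp3 and 1 (Socs3) for CD25+ against CD25- Foxp3- cells. Quantile normalization and median scaling each gave 1 (Socs3) in the last comparison. At 1.5-fold between arrays the members higher were 5 for CD25lo Foxp3+ over CD25- Foxp3-, 7 for CD25hi Foxp3+ over CD25+ Foxp3- and 3 for CD25lo Foxp3+ over CD25+ Foxp3- cells, with 1 (Socs2) lower in the last and 2 lower in CD25+ than in CD25- Foxp3- cells. Both pairings had 0 at 2-fold and 0 at 3-fold. At 3-fold, CD25hi Foxp3+ cells had 2 members above CD25+ Foxp3- cells (Il2ra, Il2rb) and 2 above CD25lo Foxp3+ cells (Il2ra, Socs2). The share of all measured genes was not computed under these alternatives. The counts given here therefore have no background and show only how the member counts moved. No paired analysis was possible because each population has 1 array. Low signal limits Socs1, Il2 outside CD25+ Foxp3- cells, and the dimmer sets of Il2rb, Stat5a and Socs2.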

Other observations

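The order of Il2ra, Il2rb, Cish and Socs2, highest in CD25hi Foxp3+ and lowest in CD25- Foxp3- cells by at least 1.5-fold each, was shared by 23 genes outside the chain, a pattern set after the values were seen. Among the brighter of them were Lrig1, which restrains epidermal growth factor receptors, at 2041 in CD25hi Foxp3+ cells, 1075 in CD25lo Foxp3+ cells, 1205 in CD25+ Foxp3- cells, compared with 529 in CD25- Foxp3- cells, and the glutathione transferase Gsto1, at 464, 210, 298 and 88.3. The axon guidance gene Ntn4 read 730, 86.0, 141 and 38.4. The others named in the report were Plagl1, Capn3, Arhgap20 and Pla2g4f.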
